A study of Oryza sativa Indica Group with 6 samples.

Results

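Aquaporins, the membrane channels for water and small neutral solutes, were described here in seedlings of *Abp57*-overexpressing rice and of wildtype rice. The genes were taken by name and not by their values, though earlier results of these data were known. A gene was taken when its symbol or a synonym in the NCBI rice gene table named it a PIP, TIP, NIP or SIP with a group and a member number. This gave 29 genes, of which 17 had a transcript cluster (the set of probes for one transcript) of their own on the array, out of 14662 genes with such a cluster. They were 8 of 11 PIP genes, 6 of 9 TIP genes, 2 of 7 NIP genes and 1 of 2 SIP genes. PIP2-5, TIP1-1 and TIP3-1 had only a cluster shared with another gene. PIP1-3, PIP2-4, TIP5;1, NIP1-2, NIP2-1, NIP3-1, NIP3-3, NIP4-1 and SIP2-1 were paired with no cluster and were not analysed here.

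All plants were *indica* rice of the cultivar MR219 at an age of 10 days, grown on MS medium (diluted, by the sample records) and harvested as whole seedlings. The control was wildtype rice, and the overexpressing rice was grown from T3 seeds after *Agrobacterium* transformation. The sources used here do not say how many independent lines it came from or which promoter drove the transgene. Each genotype had 3 Affymetrix arrays, each from a biological replicate of 3 or more pooled seedlings, and the authors deposited RMA-normalized log2 signals. Below, W1, W2 and W3 are the wildtype arrays and O1, O2 and O3 the overexpressing ones. The numbers name replicates and do not pair the genotypes.

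Plant aquaporins are grouped by sequence and by the membrane in which they are mostly found. PIPs lie in the plasma membrane, where members of the PIP2 group carry water across the cell surface and members of the PIP1 group reach that membrane, as shown in maize, in complexes with PIP2 partners. TIPs lie in the tonoplast and let water pass between the cytosol and the vacuole, and several also conduct ammonia, urea or hydrogen peroxide, as shown in *Arabidopsis*. NIPs carry metalloids such as silicon, boron and arsenite more than water, and rice, which accumulates silicon, takes it up through NIP2-1. SIPs are small proteins found largely in the endoplasmic reticulum in *Arabidopsis*.

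No aquaporin gene passed the thresholds of the methods, a fold over 2 with an unadjusted p under 0.05, and none passed an adjusted p under 0.05. Of all 41770 clusters 0.508% passed the first and 0.0144% the second. The log2 difference of overexpression minus wildtype, fitted with limma over all clusters, ran from -0.56 for PIP2-1 to 0.65 for TIP2-1, and the lowest adjusted p was 0.62. At an unadjusted p under 0.05, 2 of the 17 genes were higher in the overexpressing rice (TIP4-1 and NIP2-2) and 2 were lower (PIP2-1 and TIP1-2), where 3.27% of all clusters were higher and 3.62% lower, or 6.88% in either direction. By the unpaired ANOVA of the methods 1 gene was higher (TIP4-1) and 1 lower (TIP1-2), where 2.74% of all clusters were higher and 3.67% lower. The signals of the genotypes did not overlap for 2 genes that were higher (TIP4-1 and NIP2-2) and 2 that were lower (PIP1-1 and TIP1-2), against 5.51% and 7.53% of all clusters. Since whole seedlings were pooled, fewer cells that use a gene and less of its RNA per cell cannot be told apart.

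PIP and TIP genes had differences in both directions. The median log2 difference was 0.01 over 8 PIP genes, with 4 above and 4 below 0, and 0.07 over 6 TIP genes, with 4 above and 2 below. Both NIP genes were above 0, with a median of 0.52, and SIP1-1 had 0.02. Over all clusters the median was -0.03. The NIP median rests on only 2 genes and was 0.30 without W3. Tukey biweight folds give less weight to an array far from its group, and little or none when the other 2 arrays are close. Such values can rest on as few as 2 arrays of a genotype. Here and below they are thus not a separate check from leaving an array out. With biweight folds the medians were -0.15 for PIP, -0.01 for TIP and 0.16 for NIP, and SIP1-1 had -0.23. The TIP median was also below 0 without W3 (-0.01) and without O2 (-0.05). No test was made between subfamilies.

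**Figure D1:**
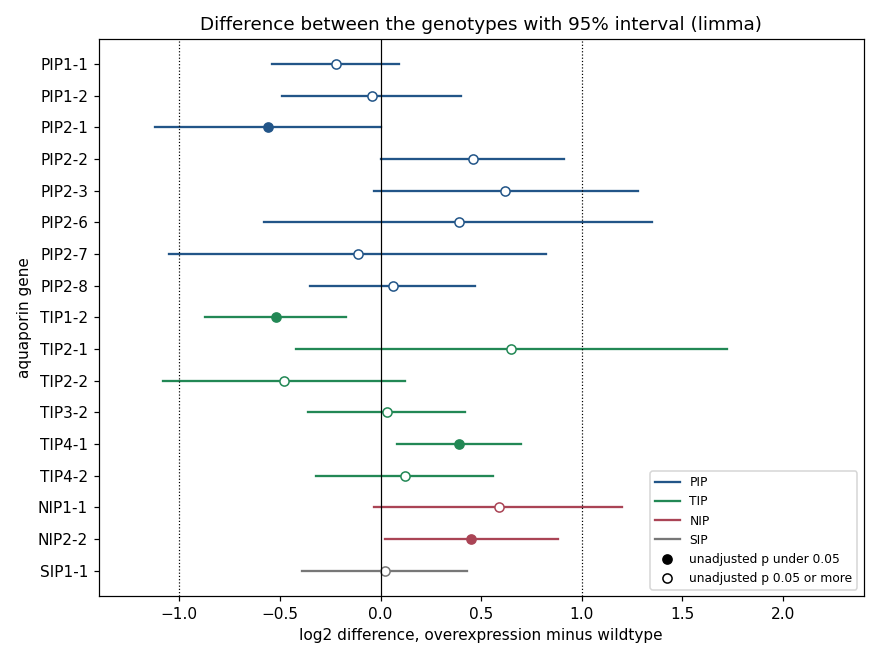
Log2 difference between overexpressing and wildtype rice (x axis) for each of the 17 aquaporin genes (y axis), with its 95% confidence interval from limma on 3 arrays per genotype. Filled points passed an unadjusted p under 0.05, dotted lines mark a fold of 2, and every estimate lies between -0.56 and 0.65, well inside the dotted lines.

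The PIP1 genes had small negative differences that did not pass an unadjusted p under 0.05. PIP1-1 had log2 signals of 11.77, 11.77 and 11.71 on W1, W2 and W3 and of 11.67, 11.38 and 11.53 on O1, O2 and O3. All 3 overexpressing arrays were below the wildtype arrays, O1 by little. Its log2 difference was -0.22 with a 95% interval of -0.54 to 0.09, within which no fold of 2 lies (adjusted p = 0.79, limma), and it passed an unadjusted p under 0.05 with repeated quantile normalization (-0.37) and with cyclic loess (-0.31). PIP1-2 had 11.68 ± 0.34 in wildtype and 11.64 ± 0.15 in overexpressing rice (SD over 3 arrays, as below) and a difference of -0.04, with an interval of -0.49 to 0.40. W3 was its highest array, at 12.06, and the difference was 0.15 without it.

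Among the PIP2 genes, PIP2-3 had the largest positive difference. Its log2 signals were 6.07, 6.60 and 7.34 on the wildtype arrays and 7.26, 7.32 and 7.29 on the overexpressing arrays. W1 and W2 lay below every overexpressing array, and W3 lay above them all. The log2 difference was 0.62 with a standard error of 0.29 (adjusted p = 0.73, limma) and 0.96 without W3, and it was 0.32 without W1. It passed an unadjusted p under 0.05 with array weights. The 3 overexpressing signals were close together, with an SD of 0.03 against 0.64 in wildtype.

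PIP2-2 had the same arrangement with a smaller difference. Its signals were 9.30, 9.16 and 9.88 on W1, W2 and W3 and 9.91, 9.94 and 9.86 on O1, O2 and O3. W3 again lay at the level of the overexpressing arrays, and the genotypes overlapped through it alone. The log2 difference was 0.46 with an interval of 0.00 to 0.91 (adjusted p = 0.73, limma), or 0.67 without W3, and it passed an unadjusted p under 0.05 with array weights and with a trend on intensity.

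PIP2-1 was the PIP gene with the largest negative difference. Its cluster had signals of 4.78, 5.03 and 4.19 in wildtype and 4.38, 4.12 and 3.80 in overexpressing rice. W3 lay between O1 and O2, so the genotypes overlapped. The log2 difference was -0.56 with a standard error of 0.24 (adjusted p = 0.72, limma), and its unadjusted p of 0.049 was over 0.05 under 7 of 10 other ways of processing and in 4 of 6 fits with 1 array left out. Those 10 ways hold the ANOVA with both folds, which share the same p, and the mean of a gene's clusters, which cannot change PIP2-1. The identity of the PIP2-1 cluster is uncertain. The platform table gives it to PIP2-1, but the 16 nearest clusters by number belong to genes of other chromosomes. Only 1.66% of the clusters paired with 1 gene were placed in this way. A brighter cluster shared by PIP2-1 and PIP2-5 had 7.09 ± 0.38 in wildtype and 6.74 ± 0.39 in overexpressing rice, a log2 difference of -0.35 (adjusted p = 0.82, limma). Its wildtype arrays were ordered otherwise, with 7.29, 6.66 and 7.33 on W1, W2 and W3. There W2 was the lowest wildtype array and W3 the highest, while on the PIP2-1 cluster W2 was the highest and W3 the lowest.

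PIP2-6 and PIP2-7 varied more between the arrays of one genotype than between the genotypes. PIP2-6 had 8.53, 8.50 and 7.28 in wildtype and 9.27, 8.01 and 8.19 in overexpressing rice, the widest range of any PIP gene, at 1.99 log2 units. W3 was the lowest and O1 the highest array. The difference was 0.39 with an interval from -0.58 to 1.35 (adjusted p = 0.88, limma), which holds values of both signs, and it was -0.03 without W3, -0.01 without O1 or with array weights, and -0.41 with biweight folds.

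PIP2-7 had signals of 7.84, 7.88 and 6.32 on the wildtype arrays and 7.58, 7.25 and 6.87 on the overexpressing arrays. W3 was the lowest of the 6 arrays, while W1 and W2 were the highest. The difference of -0.11 had an interval of -1.05 to 0.82 (adjusted p = 0.97, limma), and it was -0.63 without W3, -0.62 with biweight folds and -0.48 with array weights. PIP2-8 was steadier, with 5.48 ± 0.14 in wildtype, 5.55 ± 0.28 in overexpressing rice and a difference of 0.06 (interval -0.35 to 0.47). The PIP genes are close in sequence, and probes of one can bind RNA of another, so their separate values need not be fully independent.

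**Figure D2:**
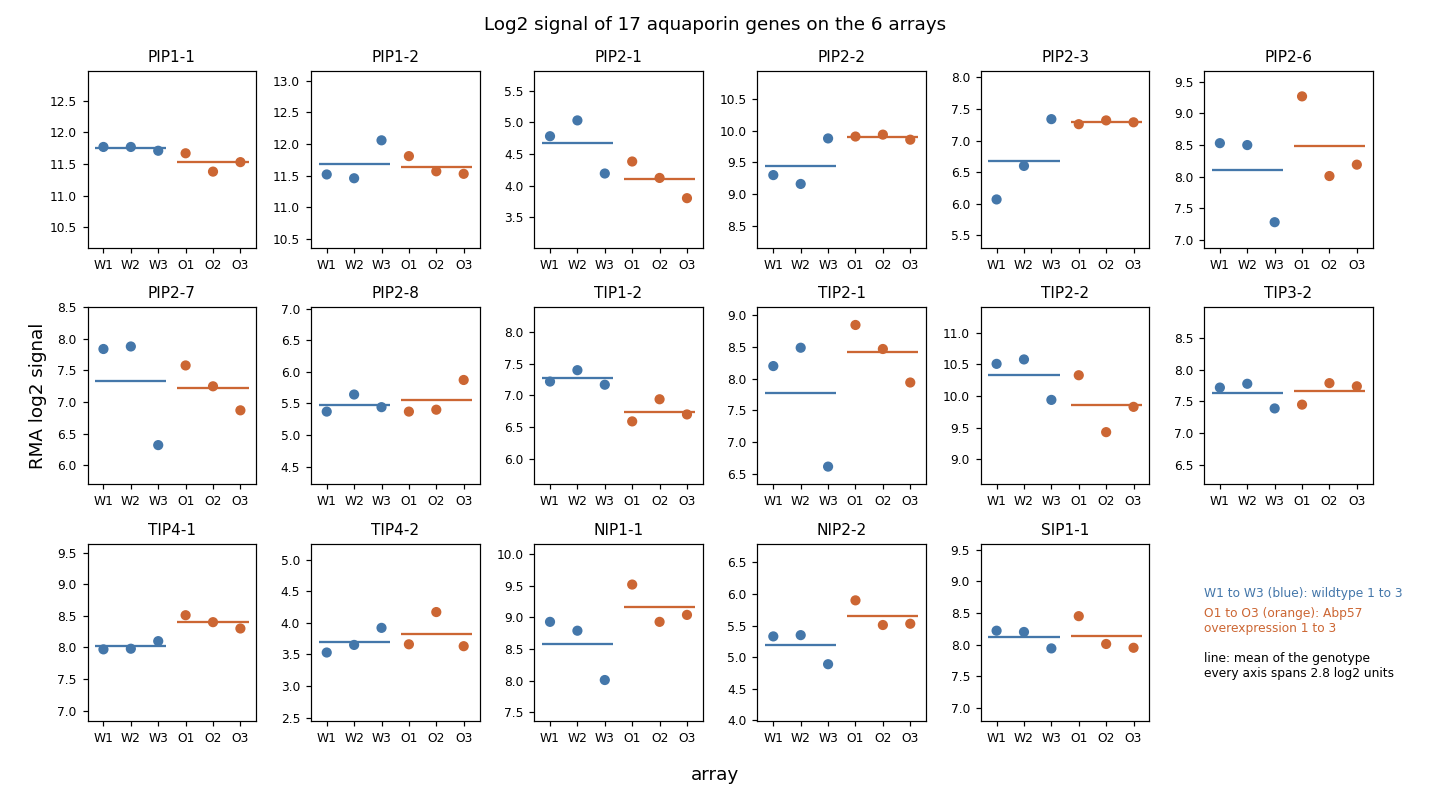
RMA log2 signal (y axis) of each of the 17 aquaporin genes on each of the 6 arrays (x axis), with wildtype in blue, overexpressing rice in orange and a line at the mean of each genotype. Every panel spans the same number of log2 units around its own centre, and TIP1-2, TIP4-1, NIP2-2 and PIP1-1 have genotypes that do not overlap.

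The tonoplast genes TIP1-2 and TIP4-1 had differences in opposite directions with no overlap between the genotypes. TIP1-2, of the group found in large central vacuoles, had signals of 7.22, 7.40 and 7.17 in wildtype and 6.59, 6.94 and 6.70 in overexpressing rice. Every overexpressing array was below every wildtype array. The log2 difference was -0.52 with a standard error of 0.15, or a fold of 0.697 (adjusted p = 0.62, limma). It passed an unadjusted p under 0.05 in 6 of 6 fits with 1 array left out, with differences between -0.62 and -0.44.

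TIP4-1 had signals of 7.97, 7.98 and 8.10 in wildtype and 8.51, 8.40 and 8.30 in overexpressing rice. Every overexpressing array was above every wildtype array. The log2 difference was 0.39 with a standard error of 0.14, or a fold of 1.31 (adjusted p = 0.67, limma). With 1 array left out it ranged from 0.33 to 0.44 and passed an unadjusted p under 0.05 in 3 of 6 fits. TIP4-2, of the same group, had 3.70 ± 0.20 in wildtype and 3.82 ± 0.30 in overexpressing rice, a difference of 0.12 (interval -0.32 to 0.56). Its mean was among the lowest 25% of all clusters, where signals are dim.

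TIP2-1 and TIP2-2, whose group conducts ammonia as well as water in *Arabidopsis*, had differences of opposite sign, neither of which passed. TIP2-1 had 8.20, 8.49 and 6.61 in wildtype and 8.85, 8.47 and 7.94 in overexpressing rice, the widest range of any aquaporin, at 2.24 log2 units. W3 was far below the other arrays. The difference of 0.65, the largest of the 17, had an interval of -0.42 to 1.72 (adjusted p = 0.82, limma). It was 0.07 without W3, 0.09 with biweight folds, 0.24 with array weights and 1.01 without W2. TIP2-2 had 10.34 ± 0.35 in wildtype and 9.86 ± 0.45 in overexpressing rice, a difference of -0.48 (interval -1.08 to 0.12, adjusted p = 0.76, limma). It was -0.26 without O2, and it passed an unadjusted p under 0.05 without W3 (-0.68), without O1 (-0.71), with array weights (-0.68) and with repeated quantile normalization (-0.57). TIP3-2, of a group known from the protein storage vacuoles of seeds, had 7.63 ± 0.21 and 7.66 ± 0.18, a difference of 0.03 (interval -0.36 to 0.42). Its direction was negative with repeated quantile normalization.

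Both measured NIP genes had positive differences, and 1 of them passed an unadjusted p under 0.05. NIP2-2, the silicon transporter Lsi6 that moves silicon out of the xylem in rice shoots, had signals of 5.33, 5.35 and 4.89 in wildtype and 5.90, 5.51 and 5.53 in overexpressing rice. The genotypes did not overlap, and W3 was the lowest array. The log2 difference was 0.45 with a standard error of 0.19, or a fold of 1.37 (adjusted p = 0.72, limma). It passed an unadjusted p under 0.05 in 3 of 6 fits with 1 array left out and was 0.30 without W3, when it did not pass. It did not pass by the ANOVA of the methods either, where its biweight value was 0.17, nor with array weights (0.32).

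NIP1-1, which lets arsenite through in rice, had signals of 8.93, 8.79 and 8.01 in wildtype and 9.52, 8.93 and 9.04 in overexpressing rice. W1 and O2 were at nearly the same level, and W3 was again the lowest array. The difference was 0.59 with an interval of -0.03 to 1.20 (adjusted p = 0.73, limma), and it was 0.31 without W3, 0.15 with biweight folds and 0.35 with array weights. It passed an unadjusted p under 0.05 without W1 (0.76). Lsi2, the efflux transporter that works with the NIP channels in silicon uptake, had a difference of 0.06 (interval -0.57 to 0.68). It was the one measured gene of 11 listed for the efflux and handling of silicon, boron and arsenic. NIP2-1 itself was not analysed here.

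SIP1-1 had signals of 8.22, 8.20 and 7.94 in wildtype and 8.45, 8.01 and 7.95 in overexpressing rice. The genotypes overlapped almost fully. The difference was 0.02 with an interval of -0.39 to 0.43, and it was -0.04 with repeated quantile normalization and -0.03 with cyclic loess, -0.10 with array weights and -0.23 with biweight folds. Its cluster, like that of PIP2-1, has by number only neighbours from other chromosomes, so its identity is uncertain too.

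Among the aquaporins W3 was more often the lowest array than among all clusters, but not more often the highest. The paper lists replicate 3 of each genotype with the highest RNA integrity number, a score of how intact RNA is, of that genotype. The part of RNA quality in these values was not tested. It was the lowest of the 6 arrays for 7 of the 17 genes (PIP2-6, PIP2-7, TIP2-1, TIP3-2, NIP1-1, NIP2-2 and SIP1-1), against 18.7% of all clusters, and the highest for PIP1-2 and PIP2-3, against 20.0%. It lay more than 1 log2 unit below the mean of W1 and W2 for PIP2-6 (-1.23), PIP2-7 (-1.54) and TIP2-1 (-1.74), where 2.87% of all clusters did. The highest and lowest array were over 1 log2 unit apart for 8 of 17 aquaporins and for 15.3% of all clusters. Over the aquaporins the SD between wildtype arrays had a median of 0.34, and that between overexpressing arrays 0.27. Over all clusters these medians were 0.20 and 0.19.

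The subfamily medians lay at different distances from the rest on W3, a difference that was not tested. As deviation from the mean of the 6 arrays, the NIP median was -0.69 on W3 and 0.57 on O1, and it lay between -0.08 and 0.14 on the other 4 arrays. The TIP median was -0.13 on W3 and the PIP median 0.00, with PIP genes on both sides of it there, PIP2-6 at -1.01 and PIP1-2 at 0.41. Most markers of dividing tissue were low on W3 as well. Of 13 measured markers, 10 had their lowest signal on W3, against 18.7% of all clusters. For 1 of the 13, RPA1A, W3 was the highest array, against 20.0% of all clusters. The median deviation of the 13 was 0.56, 0.66 and -0.97 on W1, W2 and W3 and 0.19, -0.36 and -0.27 on O1, O2 and O3. The cyclin and MCM genes among them, which cells use to divide and to copy DNA, had signals of 3.38 to 4.99 on W3, a scale with no true 0. Of 10 measured markers of green tissue 4 had their lowest signal on W3 and 2 their highest, with a median deviation of -0.02 there. The part of these markers in the aquaporin values was not tested.

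**Figure D3:**
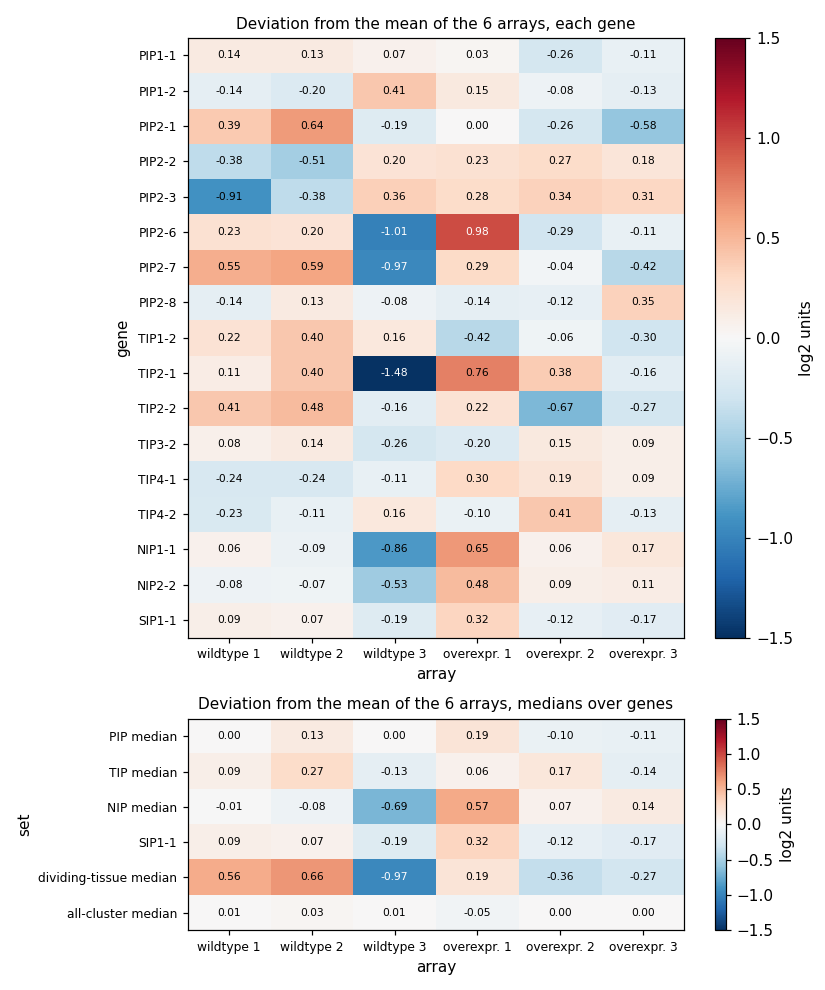
Deviation of the log2 signal from the mean of the 6 arrays (colour and printed value, log2 units) for the 17 aquaporin genes (upper panel) and as medians over each subfamily, over 13 markers of dividing tissue and over all clusters (lower panel), with arrays as columns. On wildtype 3, TIP2-1 is at -1.48, PIP2-6 at -1.01 and PIP2-7 at -0.97, while PIP1-2 is at 0.41 and PIP2-3 at 0.36.

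Without W3 more aquaporins passed an unadjusted p, as did more of all clusters (11.8%). At 0.05, 3 genes were higher (PIP2-2, PIP2-3 and TIP4-1) and 4 were lower (PIP2-1, PIP2-7, TIP1-2 and TIP2-2), where 5.87% of all clusters were higher and 5.93% lower. None passed an adjusted p under 0.05 from limma, the lowest being 0.11 for PIP2-3, while 0.362% of all clusters did. No aquaporin reached a fold of 2 in that fit either. The array was left out here because it stood apart from its genotype, which was seen in the data, and with it gone W1 and W2 alone stood for wildtype rice. When limma weighted the arrays by their spread, W3 had the lowest weight, 0.47, and O1 the next, 0.64.

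**Figure D4:**
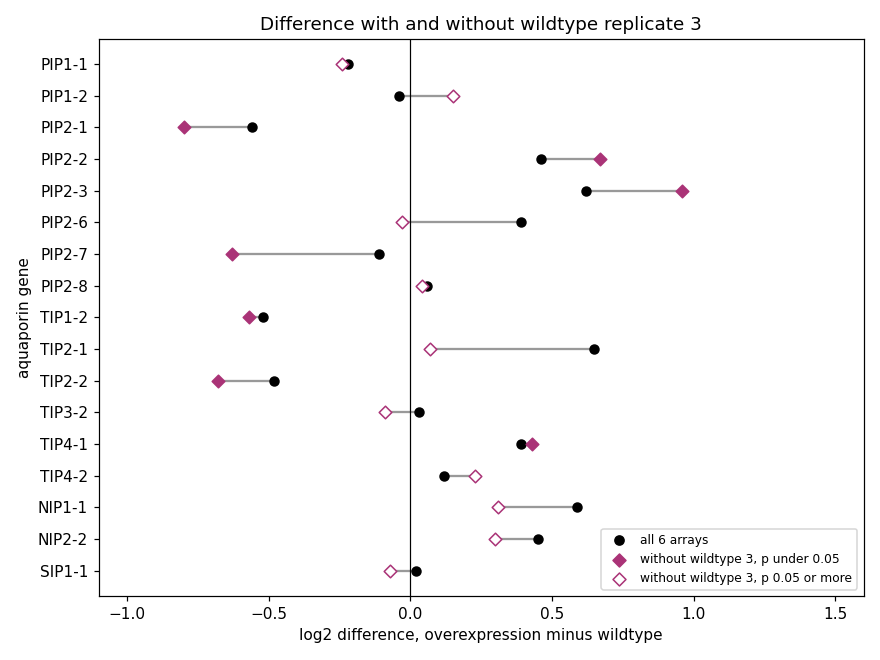
Log2 difference between overexpressing and wildtype rice (x axis) for the 17 aquaporin genes (y axis) from all 6 arrays (black circles) and from 5 arrays without wildtype 3 (diamonds, filled at an unadjusted p under 0.05). TIP2-1 goes from 0.65 to 0.07 and PIP2-7 from -0.11 to -0.63, while TIP1-2 and TIP4-1 shift little.

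The genes of water deficit and abscisic acid response, a setting in which plants adjust aquaporins, were measured for 10 of 36 listed. Their median log2 difference was -0.19, and 1 of 10 passed an unadjusted p under 0.05, against 6.88% of all clusters. DREB1B, a transcription factor of the cold response, had 7.72 as its wildtype mean and 6.97 in overexpressing rice. Its log2 difference was -0.76 with a standard error of 0.17 (adjusted p = 0.52, limma). On W3 5 of the 10 had their highest signal, against 20.0% of all clusters, among them the late embryogenesis protein gene LEA3, at 8.26 against 6.62 on both W1 and W2, a gene chosen after its values were seen. Of the 17 aquaporins 7 had their lowest signal on W3, TIP2-1, PIP2-6 and PIP2-7 among them, against 18.7% of all clusters. PIP1-2 and PIP2-3 had their highest there. The part of this list in the aquaporin values was not tested. The plasma membrane proton pump gene A7, the one measured of 31 listed names of proton pumps, had a difference of -0.05 (interval -0.37 to 0.27).

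Markers of root and of green tissue were both measured in these seedlings, with log2 signals of 3.25 to 7.64 and of 6.05 to 11.34. Of 7 measured root markers 2 were higher at an unadjusted p under 0.05, and the list median was 0.01. They were CRL4, with a log2 difference of 0.65 (adjusted p = 0.55, limma), and the Casparian strip gene CASP1, with 0.79 (adjusted p = 0.72, limma). CASP1 was low on W3, at 4.19 against 5.36 and 5.38 on W1 and W2. The share of all clusters that were higher was 3.27%. Of 10 measured markers of green tissue 2 were higher, around a list median of 0.27. They were the Rubisco activase gene RCA with 0.68 (adjusted p = 0.64, limma) and the chlorophyll synthesis gene CHLH with 0.40 (adjusted p = 0.68, limma). PPDKB was lower with -0.52 (adjusted p = 0.59, limma), where 3.62% of all clusters were lower. The part of the root and green markers in the aquaporin values was not tested. The median relative log expression lay between -0.033 on O1 and 0.019 on W2. Since RMA had already put the arrays on one scale, values near 0 say little about them. The interquartile range of relative log expression ran from 0.20 on O2 to 0.30 on O1, and was 0.27 on both W2 and W3.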

How the data were processed

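Total RNA of whole seedlings was hybridised to 6 arrays (Rice (Cn) Gene 1.0 ST, Affymetrix), 3 per genotype. The authors ran RMA (background correction, quantile normalization, summary per cluster) in Expression Console and deposited log2 signals of 41770 transcript clusters (1.25 to 13.9). Probe intensities were not used here. The version of that software is not given in the sources used here. Precision is limited by having 3 arrays a genotype.

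Genes were named through the platform table and the NCBI rice table (assembly ASM3414082v1, names only). Clusters paired with several genes were left out, and PIP2-6, the one member with 2 clusters, was represented by the brighter. The members and gene lists were chosen with earlier results of these data known. All 17 members are named. All 6 signals are given for members past an unadjusted p under 0.05, with genotypes apart, or with the highest or lowest difference or widest range in a subfamily. PIP2-2 and PIP2-7 were added after their values were seen.

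limma 3.58.1 in R 4.3.3 (lmFit, eBayes, Benjamini-Hochberg over all clusters) gave the differences, with no block or covariate. It was tested on simulated data. Alternatives were the unpaired ANOVA of the methods with plain or Tukey biweight folds, a replicate block, array weights, a prior that follows intensity, leaving out the dimmest 25%, cyclic loess, quantile normalization applied again, 1 cluster per gene, the mean of a gene's clusters, and the loss of each array in turn. Lists of other genes were proton pumps, metalloid efflux, water deficit and abscisic acid, root, green tissue and dividing tissue. Figures were made with matplotlib 3.10.9.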

Additional observations from a re-analysis of the deposited data

How the results depend on the processing

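Aquaporin genes higher at an unadjusted p under 0.05 numbered 2, but 1 by the ANOVA of the methods with either fold (2.74% of all clusters). They numbered 3 with a trend on intensity (3.29%) or with array weights (5.11%). With the replicate block they numbered 5 (4.35%), where PIP2-3, TIP2-1 and NIP1-1 joined, and without 1 array 0 to 3. Lower ones numbered 2, but 1 by the ANOVA with either fold (3.67% of all clusters) or without PIP2-1 and SIP1-1 (chosen after seeing the data). There was also 1 with the trend (3.55%), the filter on dim clusters (3.41%) or 1 cluster per gene (3.37%). There were 3 with quantile normalization (3.28%) or array weights (5.61%), and 1 to 4 without 1 array. Shares are of the clusters in each fit. In the fits with all arrays up to 5.11% of the clusters were higher and up to 5.61% lower. No aquaporin passed a fold over 2 with an unadjusted p under 0.05 in these fits (TIP2-1 had 1.01 without W2 and did not pass). With biweight folds the median log2 difference was -0.15 for PIP, -0.01 for TIP, 0.16 for NIP and -0.23 for SIP, and without 1 array the PIP median ranged from -0.07 to 0.15 and the TIP median from -0.05 to 0.16. Of 271 values of single genes 25 had the other sign at 2 decimals and TIP3-2 was 0.00 with cyclic loess, none of them past the unadjusted p. With biweight folds PIP1-2 had 0.06, PIP2-6 -0.41, PIP2-8 -0.06, TIP4-2 -0.03 and SIP1-1 -0.23. Biweight folds can give an array far from its group almost no weight, so they are not a separate check from the loss of that array. With quantile normalization TIP3-2 had -0.02 and SIP1-1 -0.04, and with cyclic loess 0.00 and -0.03. With array weights PIP1-2 had 0.02, PIP2-6 -0.01 and SIP1-1 -0.10. Without 1 array PIP1-2 ranged from -0.15 to 0.15, PIP2-6 from -0.03 to 0.63, PIP2-7 from -0.63 to 0.15, PIP2-8 from -0.10 to 0.15, TIP3-2 from -0.09 to 0.13, TIP4-2 from -0.06 to 0.23 and SIP1-1 from -0.14 to 0.11.

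Among all clusters, 6 passed the adjusted p upwards and 0 downwards. Higher ones numbered 0 by the ANOVA with either fold, 12 with the trend, the filter or quantile normalization, 24 with array weights, 14 with the block and 0 to 94 without 1 array. Lower ones numbered 1 with the filter or the block, 2 with array weights and 0 to 57 without 1 array. At the fold and unadjusted p, 140 were higher and 72 lower. With 1 cluster per gene there were 67 and 39, but that fit held only 14662 clusters, against 41770. These counts cannot be compared directly. Lower ones were 27 by the ANOVA, 41 when its folds were biweight, and 122 with array weights. Leaving out 1 array gave 104 to 222 higher and 54 to 196 lower clusters. The causes were not tested. Arrays with the same number did not deviate together throughout (correlations 0.35, -0.11 and 0.21), so the block result rests on numbers alone.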

Other observations

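PIP2-6 was measured by a second, dimmer cluster. It had log2 signals of 7.86, 7.82 and 5.98 on W1, W2 and W3 and of 8.57, 7.28 and 7.47 on O1, O2 and O3, with W3 lowest and O1 highest as on the first cluster. Its log2 difference was 0.55 with an interval from -0.67 to 1.78. Low PIP2-6 on W3 was thus read by 2 clusters of the same array, which share the RNA but are separate summaries of probes.

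The clusters that an aquaporin shares with another gene were left out of the counts. TIP1-1, a main water channel of the vacuole, shared a cluster with 10.22 ± 0.42 in wildtype and 10.22 ± 0.29 in overexpressing rice (SD, 3 arrays), with W3 at 9.74 and the other wildtype arrays at 10.45 and 10.47. The shared cluster of TIP3-1 had 8.23 ± 0.07 and 8.01 ± 0.31, a log2 difference of -0.22. A dim cluster shared by PIP1-1 and LOC4327517 had 4.65, 4.78 and 4.34 in wildtype and 4.10, 3.79 and 4.34 in overexpressing rice, a log2 difference of -0.52, while the bright cluster of PIP1-1 had -0.22.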
